A study of Homo sapiens with 5 samples.

Results

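Cyclic nucleotide phosphodiesterases are the enzymes that break down the second messengers cAMP and cGMP, and 10 of their genes are described here in MCF12A, a human breast epithelial cell line that does not form tumours. The genes are PDE1C, PDE3A, PDE4B, PDE4D, PDE5A, PDE7A, PDE7B, PDE8A, PDE8B and PDE10A. They were taken by symbol from 17651 genes measured in both deposited tables, each from its probe annotated with exactly 1 symbol. The list was drawn up with results of these arrays known, so the values below are a description and no count over the 10 genes is a test. PDE8B and PDE7B stood far above control after ethanol, after acetaldehyde and in a clone selected in soft agar. On the values as deposited, PDE4B reached 2-fold above control only in ethanol. PDE8A did so only in the clone, where 14.7% of genes did, and the other 6 genes stayed within 2-fold of control.

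RNA came from 5 cultures, with 1 array each. Per the labels, the ethanol culture was kept for 4 weeks in 2.5% ethanol, the acetaldehyde culture for 4 weeks in 1% acetaldehyde, and their control was not exposed. The clone is a single clone of ethanol-exposed cells that was picked for growing in soft agar, where cells have no surface to attach to, and was then returned to monolayer culture. The labels give it 4 weeks of exposure, yet they state another array design for exposures of that length than the one it is on, which was not resolved. They also put its ethanol at 2.5% in one place and 2.5 mM in another, and its dose is therefore left out. Its own control is labelled as unexposed but also carries a soft agar tag. All 5 cultures share a medium with horse serum, epidermal growth factor, hydrocortisone, insulin and cholera toxin, a bacterial toxin that locks the stimulatory G protein in its active state and so keeps adenylyl cyclase switched on. The ethanol, acetaldehyde and control arrays are in one table and the clone and its control in another, on another array design, so no difference was taken across tables. With 1 array per group there is no spread between cultures, no test was possible, and precision is limited by the number of arrays. In bulk RNA, a change in the share of cells that carry a transcript and a change in transcript per cell cannot be told apart.

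Cyclic AMP is made by adenylyl cyclases, mostly downstream of receptors coupled to the stimulatory G protein, and acts through protein kinase A, the exchange factors called EPACs and cyclic nucleotide channels. Phosphodiesterases end the signal, and their families differ in substrate and regulation. The PDE4, PDE7 and PDE8 families are specific for cAMP, PDE5 is specific for cGMP, and PDE1, PDE3 and PDE10 act on both. Protein kinase A phosphorylates the transcription factor CREB, which binds the cAMP response element in the promoters of its target genes.

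The bases before the outermost annotated start of transcription are shown for the 4 genes that reached 2-fold in at least 1 comparison with a control, PDE7B, PDE8B, PDE4B and PDE8A, because 3 of them were higher together in ethanol and the cAMP response element is the best known element of this pathway. Each run holds 250 bases of RefSeq sequence (GRCh38.p14), 5′ to 3′ on the strand of the gene, and capitals mark the full element TGACGTCA.
PDE7B, chr6:135851451-135851700, plus strand: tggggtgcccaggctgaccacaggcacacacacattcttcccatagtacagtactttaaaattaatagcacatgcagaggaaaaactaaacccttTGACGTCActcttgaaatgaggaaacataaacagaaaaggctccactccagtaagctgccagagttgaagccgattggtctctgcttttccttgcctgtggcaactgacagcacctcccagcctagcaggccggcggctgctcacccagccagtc
PDE8B, chr5:77086465-77086714, plus strand: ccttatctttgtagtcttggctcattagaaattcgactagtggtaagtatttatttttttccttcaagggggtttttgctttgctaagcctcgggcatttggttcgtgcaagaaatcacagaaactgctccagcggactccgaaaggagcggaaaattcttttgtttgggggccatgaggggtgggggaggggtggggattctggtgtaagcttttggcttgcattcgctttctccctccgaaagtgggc
PDE4B, chr1:65792260-65792509, plus strand: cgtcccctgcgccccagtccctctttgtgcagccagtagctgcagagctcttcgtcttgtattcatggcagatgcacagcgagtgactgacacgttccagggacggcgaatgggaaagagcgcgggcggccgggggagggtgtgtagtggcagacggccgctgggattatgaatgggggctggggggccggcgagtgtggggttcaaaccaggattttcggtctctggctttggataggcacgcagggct
PDE8A, chr15:84980217-84980466, plus strand: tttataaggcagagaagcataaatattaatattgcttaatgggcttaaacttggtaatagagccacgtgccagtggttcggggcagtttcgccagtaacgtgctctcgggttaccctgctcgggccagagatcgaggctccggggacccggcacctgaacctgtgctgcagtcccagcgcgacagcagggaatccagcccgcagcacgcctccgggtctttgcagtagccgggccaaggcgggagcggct

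Of these 4 runs, that of PDE7B held the full element, with 147 bases between the element and the start. The motif search covered both strands of windows of 300 bases, 250 before and 50 after each annotated start. Windows on the chromosome of PDE7A were left out of the search over the 10 genes but kept in the shares over all genes. RefSeq windows of the other 9 genes were searched, 34 windows in all. TGACGTCA, which reads the same on both strands, was in 1 of the 34, and it was in 1.85% of 35116 windows of all genes. The shorter element TGACG, or CGTCA on the other strand, is contained in the full element and was in 3 of the 34 windows, those of PDE7B, PDE4D and PDE5A, against 24.6% of all windows. Counted by gene, TGACG was in a window of 3 of the 9 genes, against 28.4% of 27305 genes. TGACGTCA was in a window of 1 of the 9, against 2.25%. Nothing is read from these small counts. No window of PDE8B, of which there were 4, held TGACG. A match describes letters in these windows, and the arrays do not tell which start was used.

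**Figure D1:**
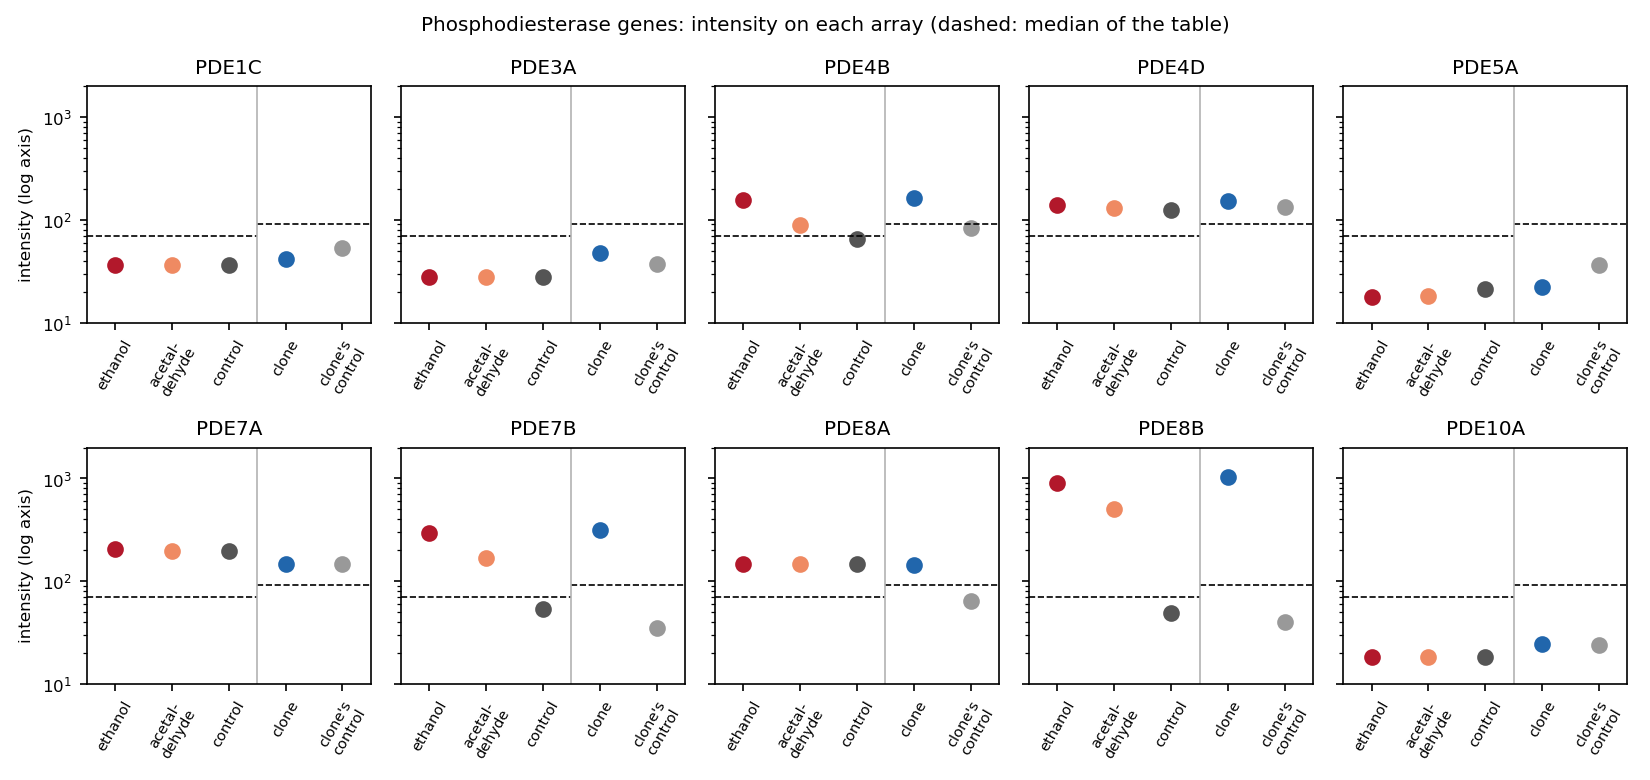
Intensity of each of the 10 genes (log axis) on the 5 arrays, 1 point per array, with the ethanol and acetaldehyde table left of the grey line and the clone table right of it. Dashed lines mark the median of each table, 70.2 and 92.0. PDE8B and PDE7B lie above the line in ethanol, acetaldehyde and the clone and below it on both control arrays, while PDE1C, PDE3A, PDE5A and PDE10A lie below it on all 5.

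PDE8B encodes a cAMP-specific enzyme with very high affinity for its substrate that is not blocked by the general inhibitor IBMX. It had an intensity of 896 in ethanol and 504 in acetaldehyde, against 49.4 in their control. It read 1038 in the clone, against 40.3 in the clone's control. Every exposed culture was thus far above its own control, and both controls lay under the intensity floor, which is the median of each table, 70.2 in the first and 92.0 in the second, and not a measured background. Taken against that floor, the level of PDE8B in ethanol was at least 12.8-fold higher, that in acetaldehyde was at least 7.18-fold higher, and that in the clone was at least 11.3-fold higher. On the log2 scale of the deposited values the differences were 4.18, 3.35 and 4.69. Among the genes that reached the floor on at least 1 of the compared arrays, PDE8B had the 7th highest difference of 11264 in ethanol, the 4th highest of 11194 in acetaldehyde and the 20th highest of 12262 in the clone.

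PDE8A, its closest relative in the family and also cAMP-specific, did not follow PDE8B in the first table. Its intensity was 149 in ethanol, 149 in acetaldehyde and 149 in their control, equal to within 1e-06 on the log2 scale. In the second table PDE8A had 143 in the clone, against 63.9 in the clone's control. That is a log2 difference of 1.16, which ranked 1440th of 12262. Because the control lay under the floor, the fold is given as at least 1.55, so the 2-fold count includes PDE8A only on the values as deposited.

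PDE7B encodes a cAMP-specific enzyme that, like PDE8B, is insensitive to the PDE4 inhibitor rolipram. Its intensity was 296 in ethanol and 170 in acetaldehyde, against 54.4 in their control. The clone had 314, against 35.0 in the clone's control. The groups again stood on opposite sides of the floor, and the level of PDE7B in ethanol was at least 4.21-fold higher, that in acetaldehyde was at least 2.42-fold higher, and that in the clone was at least 3.41-fold higher. The log2 differences were 2.44, 1.64 and 3.16, which ranked 49th of 11264, 51st of 11194 and 75th of 12262. The clone and ethanol have no settled order for PDE8B or PDE7B, since the clone had the higher log2 difference and ethanol the higher bound against the floor.

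PDE7A, the other gene of that family, differed little in any comparison. It had 205 in ethanol and 197 in acetaldehyde, against 197 in their control, and the value in acetaldehyde equalled that of the control. The clone had 147, against 148 in the clone's control. The log2 differences were 0.05, 0.00 and -0.01. With the clone's differences centred on the median of all probes, -0.17, the value of PDE7A in the clone was 0.15, so its sign there is set by the scaling.

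**Figure D2:**
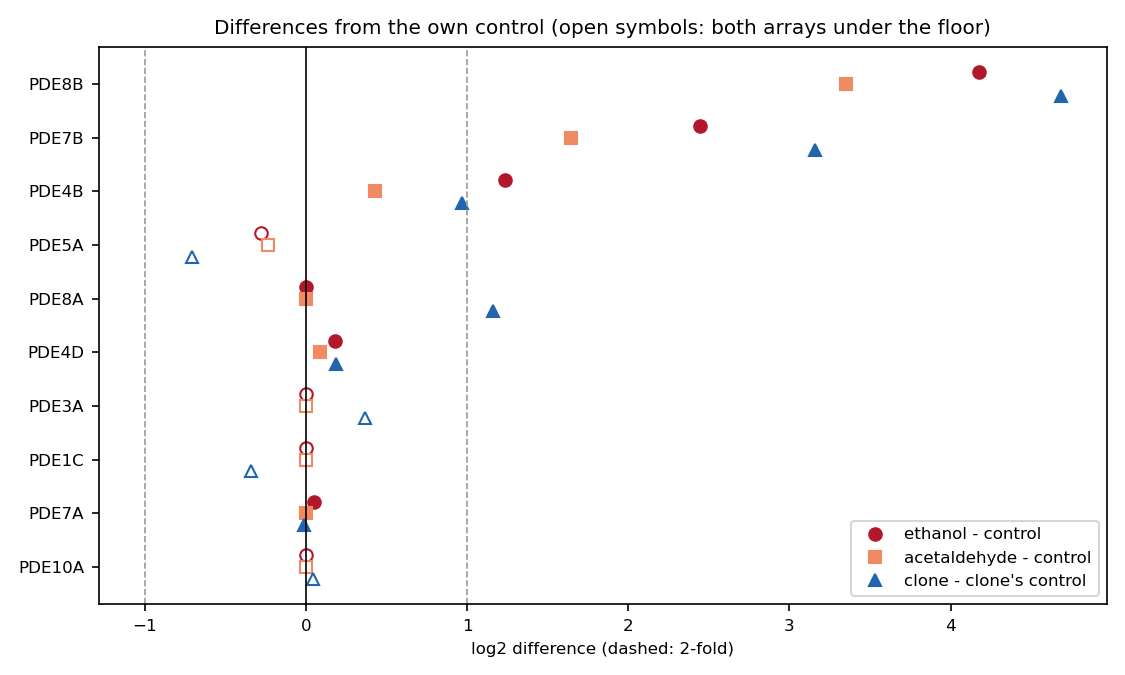
Log2 difference of each gene from its own control, with ethanol as circles, acetaldehyde as squares and the clone as triangles. Open symbols mark genes under the floor on both arrays, and dashed lines mark 2-fold. PDE8B spans 3.35 to 4.69 and PDE7B 1.64 to 3.16, against controls that lie under the floor.

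PDE4B encodes a cAMP-specific enzyme of the rolipram-sensitive family, known for its part in inflammatory signalling. Its intensity was 154 in ethanol and 88.4 in acetaldehyde, against 65.6 in their control. The clone had 162, against 82.5 in the clone's control. Both controls were just under the floor. PDE4B was at least 2.20-fold higher in ethanol, with a log2 difference of 1.23 that ranked 211th of 11264. In acetaldehyde the log2 difference was 0.43, under 2-fold, and in the clone it was 0.97, just under 2-fold. With the clone's differences centred on the median of all probes, the value of PDE4B there was 1.14, past 2-fold.

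PDE4D, of the same family, reached the floor on all 5 arrays and varied less. It read 140 in ethanol and 131 in acetaldehyde, against 123 in their control. The clone had 153, against 135 in the clone's control. The log2 differences of 0.18, 0.09 and 0.19 are all in the same direction and all far under 2-fold. A further probe of the first table carries PDE4D together with another symbol and was not used.

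The 3 genes whose enzymes hydrolyse both cAMP and cGMP were dim throughout. PDE1C, whose enzyme is activated by calcium and calmodulin, had 36.7 on each of the ethanol, acetaldehyde and control arrays, and 41.9 in the clone against 53.2 in the clone's control. PDE3A, whose enzyme is inhibited by cGMP, had 27.7 on each of the first 3 arrays, and 47.8 in the clone against 37.0 in the clone's control. PDE10A had 18.5 on each of the first 3 arrays, and 24.7 in the clone against 23.9 in the clone's control. All lay under the floor, so no fold is given for them and no direction is read from them.

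PDE5A, the cGMP-specific enzyme blocked by sildenafil, was also under the floor on all 5 arrays. It had 17.6 in ethanol and 18.1 in acetaldehyde, against 21.4 in their control, and 22.1 in the clone against 36.0 in the clone's control. The exposed cultures had the lower values in each table, with log2 differences of -0.28, -0.24 and -0.70, at intensities where dim signal limits any reading. Between -0.70 and 0.37, the differences of the 4 dim genes never reached 2-fold.

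Equal values were frequent in the first table and touch these results. There 38.4% of probes had equal log2 values on all 3 arrays, to within 1e-06, and so did 4 of the 10 genes, PDE1C, PDE3A, PDE8A and PDE10A. Ethanol equalled control in 43.9% of probes and acetaldehyde equalled control in 48.2%, whereas the clone equalled its control in 1.02%. The value of PDE10A on the ethanol array was held by 24 probes of that array, and PDE11A was among them, whereas on the clone array no other probe shared it. How these equal values arose was not tested, and a difference of 0.00 in that table is therefore not a measure of how constant a gene was.

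In all, 3 of the 10 genes were at least 2-fold higher than control in ethanol, where 2.63% of 11264 genes past the floor were, and 0 were lower, where 2.44% were. In acetaldehyde 2 of the 10 were higher, where 1.03% of 11194 were, and 0 were lower, where 0.0536% were. In the clone 3 were higher, where 14.7% of 12262 were, and 0 were lower, where 5.83% were. The 10 genes were chosen with these differences in view, so nothing is read from their share. Equal values are frequent in the first table, so the shares over all genes are not compared between the tables. Over all 10 genes the median log2 difference was 0.03 in ethanol, 0.00 in acetaldehyde and 0.28 in the clone, and over all genes of each table it was 0.00, 0.00 and -0.14. Only 6 of the 10 passed the floor in each comparison, and PDE8B, PDE7B and PDE4B passed only through their exposed cultures, as did PDE8A in the clone. PDE8B and PDE7B were at least 2-fold higher in all 3 comparisons with a control, as were 0.957% of 10445 genes past the floor in all of them. The ethanol and acetaldehyde comparisons share their control array.

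**Figure D3:**
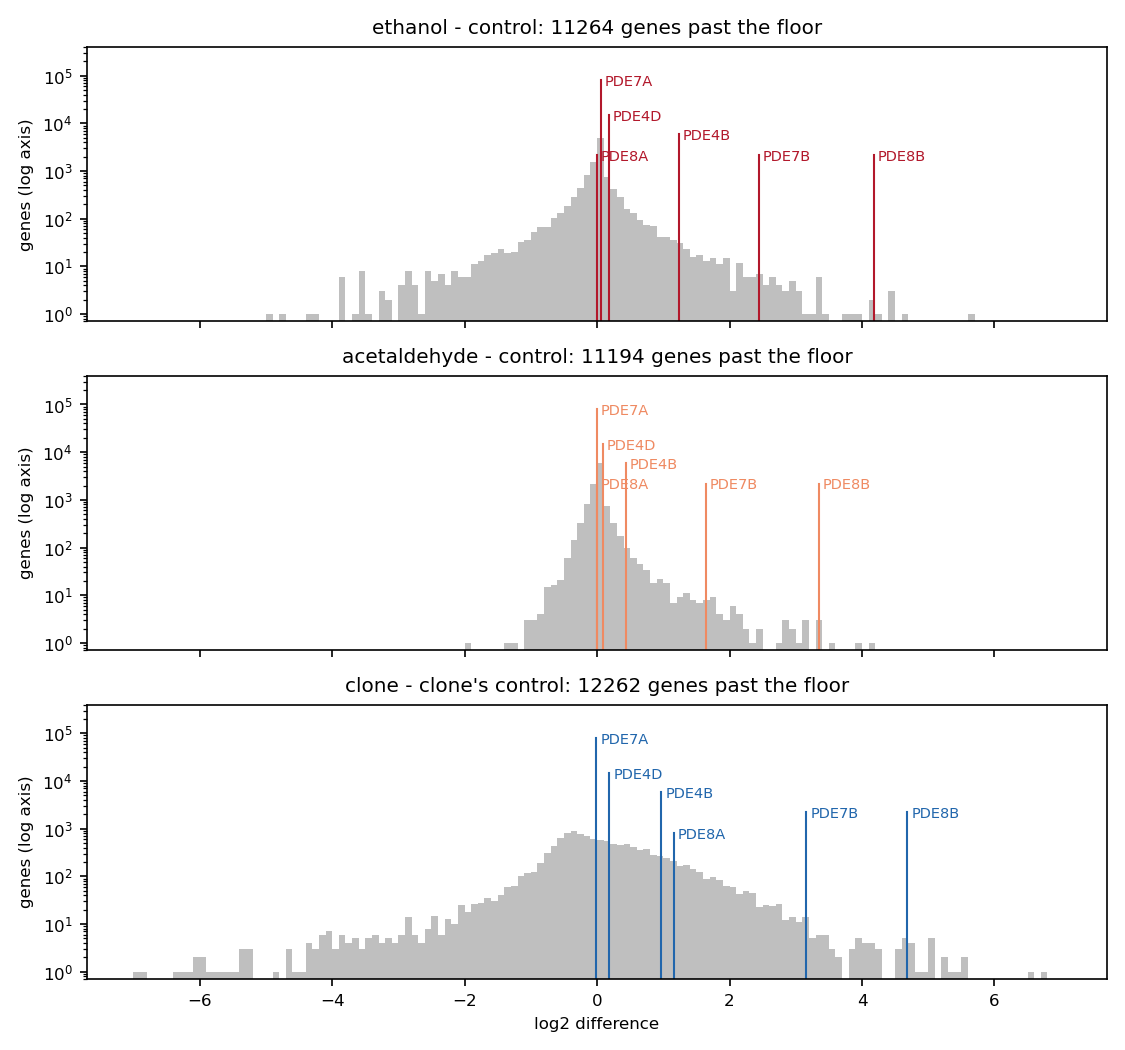
Histograms of log2 differences of all genes past the floor (log count axis, bins of equal width), with vertical lines at the 6 phosphodiesterase genes past the floor. The height of a line is set for legibility and carries no value. PDE8B lies in the upper tail in all 3 panels. The histogram of the clone is the widest, but ethanol and acetaldehyde equalled control in 43.9% and 48.2% of probes, against 1.02% in the clone. Widths are therefore not compared between the tables.

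Acetaldehyde was also set directly against ethanol, at doses that differ in the labels. PDE8B, PDE7B and PDE4B were all lower in acetaldehyde than in ethanol, at 56.2%, 57.5% and 57.3% of their ethanol intensities. Their log2 differences of -0.83, -0.80 and -0.80 ranked 111th, 123rd and 121st from the lowest of 11221 genes. None of the 10 genes reached 2-fold between the compounds, where 1.85% of genes were past 2-fold upward in acetaldehyde and 0.526% downward. At 1.5-fold, 3 of the 10 were lower, these same genes, where 2.22% of genes were. For PDE8A, PDE1C, PDE3A and PDE10A the arrays of both compounds had equal values, and PDE7A and PDE4D had log2 differences of -0.05 and -0.10.

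Among the 14 other phosphodiesterase genes listed, 12 were measured with ethanol and acetaldehyde and 13 with the clone. PDE3B, whose enzyme is the one through which insulin lowers cAMP in fat cells, was the only gene of these at least 2-fold from control in ethanol or in the clone. It had 132 in ethanol and 68.3 in acetaldehyde, against 30.5 in their control, and 243 in the clone against 30.6 in the clone's control. Its log2 differences were 2.11, 1.16 and 2.99, also against controls under the floor. In acetaldehyde it stayed under the floor and was not counted, and against the floor it was at least 1.88-fold higher in ethanol and at least 2.64-fold higher in the clone. PDE9A, a cGMP-specific enzyme, had log2 differences of -0.02, -0.03 and 0.67, and PDE4A had 0.27, 0.04 and 0.44. The median over the measured genes of this list was 0.00 in ethanol, 0.00 in acetaldehyde and -0.19 in the clone.

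The rest of the pathway was counted list by list, and nothing is read from these small counts. Among all genes past the floor in ethanol, 2.63% were at least 2-fold higher and 2.44% lower. The shares were 1.03% and 0.0536% in acetaldehyde, and 14.7% and 5.83% in the clone. Of 18 cyclase genes, 7 passed the floor, none reached 2-fold in ethanol or acetaldehyde, and ADCY3, an adenylyl cyclase, was 2.61-fold higher in the clone. ADCY3 had 1079 in ethanol and 836 in acetaldehyde, against 583 in their control, and 730 in the clone against 280 in the clone's control. Of 26 measured genes of cyclase-coupled G proteins and receptors, 16 passed the floor in ethanol and in acetaldehyde and 18 in the clone. PTGER2 was the 1 gene of them at least 2-fold higher in each comparison. PTGER2, the prostaglandin E receptor that raises cAMP, had 184 in ethanol and 106 in acetaldehyde, against 31.8 in their control, and 224 in the clone against 57.0 in the clone's control. Measured against the floor, PTGER2 was at least 2.61-fold higher in ethanol, while the bound was 1.51-fold for acetaldehyde and 2.43-fold for the clone. GNAL, which encodes a stimulatory G protein subunit first known from olfactory neurons, was 2.96-fold lower in ethanol and 2.39-fold lower in the clone, with a log2 difference of -0.17 in acetaldehyde. GNAO1, which encodes an inhibitory G protein subunit abundant in neurons, was 3.24-fold lower in the clone, with log2 differences of -0.56 in ethanol and -0.06 in acetaldehyde. GNAS, the main stimulatory subunit and the target of cholera toxin, had log2 differences of 0.14, 0.12 and -0.05.

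Of 12 genes of protein kinase A and protein kinase G, 6 passed the floor in each comparison, and 0 of these were at least 2-fold away in ethanol or acetaldehyde. In the clone 1 was higher, the regulatory subunit gene PRKAR1A, with 1683 against 833 in the clone's control. Of 14 measured anchoring protein genes 7 passed the floor, as did 7 of 13 genes of EPACs and cyclic nucleotide channels, and 0 of those counted were past 2-fold in ethanol or acetaldehyde. In the clone 2 anchoring genes were higher, AKAP9 at least 2.37-fold and AKAP11 2.08-fold, and no channel or EPAC gene was. Of 11 measured CREB factor genes 10 passed the floor, 0 reached 2-fold in ethanol or acetaldehyde, and in the clone SIK3 was at least 5.11-fold higher, CREB3 2.25-fold higher and CRTC2, which encodes a CREB coactivator, 2.06-fold lower. SIK3 encodes a kinase that restrains such coactivators. CREB1 itself had log2 differences of 0.00, 0.00 and 0.71. The exporter gene ABCC4 had a log2 difference of 0.22 in ethanol and was 2.07-fold higher in the clone.

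Of 18 measured genes listed as responsive to cAMP, 10 passed the floor in ethanol, 9 in acetaldehyde and 11 in the clone. Those past 2-fold numbered 2 upward and 0 downward in ethanol, 1 upward and 0 downward in acetaldehyde, and 2 upward and 5 downward in the clone, where 14.7% and 5.83% of all genes past the floor were. CITED2, a transcriptional coregulator, was 3.59-fold higher in ethanol and 5.93-fold higher in the clone, and had a log2 difference of 0.88 in acetaldehyde. NR4A2, an orphan nuclear receptor, was at least 2.39-fold higher in ethanol, and RGS2, a regulator of G protein signalling, was 2.45-fold higher in acetaldehyde. Many of these genes answer to growth factors and serum as well. Among those lower in the clone, SGK1, FOS and DUSP1 had log2 differences of -2.39, -2.14 and -2.04. The median over the measured genes of the list was 0.00 in ethanol, 0.00 in acetaldehyde and -0.45 in the clone, against -0.14 over all genes in the clone.

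**Figure D4:**
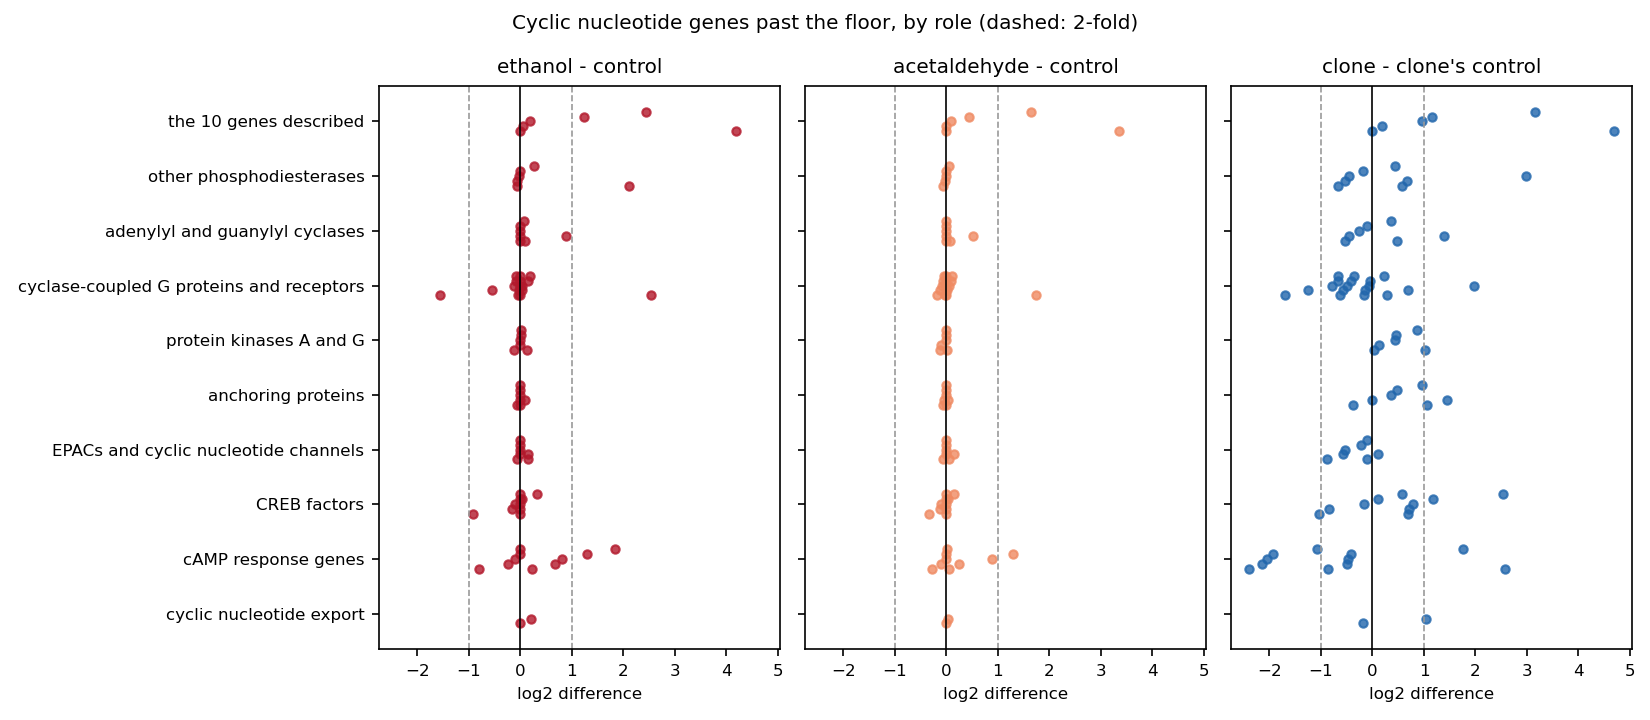
Log2 differences from the own control of cyclic nucleotide genes past the floor, 1 point per gene, grouped by role, with dashed lines at 2-fold. In ethanol and acetaldehyde most points lie near 0, also among the other phosphodiesterases, while PDE8B and PDE7B lie past 2-fold in both. Probes equal to control made up 43.9% in ethanol and 48.2% in acetaldehyde, against 1.02% in the clone. The spread of points is therefore not compared between the tables.

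Genes with patterns most like the 3 phosphodiesterase genes of largest difference were found by Euclidean distance over the 3 log2 differences, among 10444 genes past the floor in all comparisons with a control. The differences of the 3 genes are taken against controls under the floor. With dim values raised to the floor, the clone's difference was 3.50 for PDE8B and 1.77 for PDE7B, shifts larger than the distances given here, so the neighbours rest on dim control values. Nearest to PDE8B were TFPI2, a protease inhibitor gene, TGFB2, a growth factor gene, and SRGN, a proteoglycan gene, at distances of 0.65, 0.66 and 0.73. Nearest to PDE7B were CSGALNACT1, which encodes an enzyme of chondroitin sulfate synthesis, PLXND1, a semaphorin receptor gene, and PRKD1, which encodes protein kinase D, at 0.18, 0.20 and 0.40. CSGALNACT1 had log2 differences of 2.36 in ethanol, 1.56 in acetaldehyde and 3.03 in the clone. Nearest to PDE4B were CPVL, a carboxypeptidase-like gene, CDH11, a cadherin gene of mesenchymal cells, and PTPRM, a receptor phosphatase gene, at 0.15, 0.17 and 0.19.

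Cell type markers also differed from control, mainly in ethanol and the clone. Of all genes past the floor, 2.63% were higher and 2.44% lower past 2-fold in ethanol, and 14.7% and 5.83% in the clone. In acetaldehyde the shares were 1.03% and 0.0536%. Of 9 listed breast epithelial markers, 7 were measured, all past the floor. In the control culture KRT5, a basal keratin, had 6056 and CDH1, which encodes E-cadherin, had 1114, and both lay far above the floor, as they do in breast epithelium. Past 2-fold, 4 of the 7 were lower in ethanol and 1 was higher, and their summed intensity was 8658 against 12656 in control. In acetaldehyde none was past 2-fold, and the sum was 13297. The median log2 difference of the 7 was -1.48 in ethanol and 0.03 in acetaldehyde. In the clone 5 were lower, with 10217 against 24273 in the clone's control and a median of -2.66, and CDH1 read 43.6, under the floor. Of 10 fibroblast and mesenchymal markers, 1 was higher in ethanol and 1 in acetaldehyde, DCN in each, and 5 in the clone. Their summed intensity was 3738 in ethanol and 2974 in acetaldehyde, against 2238 in control, and 9101 in the clone against 3804 in the clone's control. The median log2 differences of those past the floor were 0.11, 0.06 and 1.29. Of 5 listed adipocyte markers, 4 were measured with ethanol and acetaldehyde and 5 with the clone. Only FABP4 was past 2-fold in any comparison with a control. FABP4 had 2163 in ethanol and 152 in acetaldehyde, against 41.8 in their control. The clone had 962, against 23.1 in the clone's control. The median log2 differences over the measured adipocyte markers were 0.20, 0.05 and -0.17. ADIPOQ, which defines fat cells, and PTPRC, which defines blood cells, were under the floor on all 5 arrays. Endothelial, neuronal and smooth muscle lists had 0 genes past 2-fold in ethanol or acetaldehyde and 1 each in the clone, KDR, MAP2 and ACTA2, all higher, and the blood cell list had 0 in each. The part of these markers in the differences of PDE8B and PDE7B was not tested.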

How the data were processed

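RNA of 5 MCF12A cultures was measured on Affymetrix Gene ST arrays, 1 per group. The authors deposited linear intensity values. They used RMA, per the submitters' processing notes, with no version stated. This method corrects background, normalises arrays together and summarises the probes of a set, which can compress the differences of dim genes. Each table held 33297 probes, and median intensities were 70.2, 70.6 and 69.98 for ethanol, acetaldehyde and control, and 89.9 and 94.0 for clone and clone's control. Each table was taken as normalised on its own.

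From these values log2 differences were computed within a table with Python 3.11.15. Probes with exactly 1 symbol in the platform annotation were used (19181 and 19460), and a gene with several took the brightest by table mean. A difference was counted when the brighter array reached its table's median and the change was at least 2-fold. Folds against a dimmer value are bounds over that floor. The members and lists were chosen with earlier results of these data known. Beside the 10 members, genes were named where they reached 2-fold in at least 1 control comparison, at most 3 each way per list, and as the 3 nearest in pattern to the 3 members of largest difference. GNAS, CREB1, PDE4A, PDE9A, PDE11A and the cell type markers were named outside that rule, after their values were seen. The calculations were tested on simulated data. No p-value was computed, since no group has replicates. Alternatives covered the floor, the fold, centring, lowess, quantile normalisation and the choice of probe.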

Additional observations from a re-analysis of the deposited data

How the results depend on the processing

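Counts of the 10 genes past 2-fold, in the 3 comparisons with a control and in acetaldehyde against ethanol, stayed within 1.5 times in 30 of 32 recalculations over 8 alternatives. With the floor at the 75th percentile of the table, 1 gene was higher in acetaldehyde, PDE8B, against 2, because PDE7B was too dim to be counted. At 1.5-fold, 3 genes were lower in acetaldehyde than in ethanol, against 0 at 2-fold. In the clone the count was 4 with centring or lowess correction, against 3, and 2 with values under the floor raised to it. These changes lie within 1.5 times and are among the 30. The choice of probe could not move any of these counts, and centring could not move those of the first table. The total of 30 therefore overstates how far the counts were tried. Of 320 recalculated log2 differences of single genes, 317 stayed within 1.5-fold, and no difference that reached 2-fold changed sign. The other 3 came from raising values under the floor to it in the clone, where PDE8B had 3.50, PDE7B 1.77 and PDE5A 0.00. Alternatives that changed only the floor for counting or the fold could not move a log2 difference. The choice of probe could not either, since each gene had 1 probe in each table. Centring could not in the first table, where the median over all probes was 0. The total of 317 therefore overstates how far these differences were tried. Of 640 list counts 43 moved by over 1.5 times. For PDE3B, ethanol was not 2-fold higher once dim values were raised to the floor. Signals under the floor limit all statements on PDE1C, PDE3A, PDE5A and PDE10A. No paired analysis was possible because each group has 1 array, and no replicate could be left out.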
